A study of Mus musculus with 3 samples.

Results

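Of 24981 regions formed by merging the overlapping ATAC-seq peaks of 3 deposited lists, 2277 were found in all 3 lists, were narrower than 1500 bp and lay more than 1 kb from every protein-coding gene. They are called common regions outside genes here. They made up 18.4% (95% Wilson interval 17.7 to 19.1) of the 12377 regions of that width found in all 3 lists. Another 7347 of these lay within 1 kb of either end of a protein-coding gene (gene ends), and 2753 lay deeper inside a gene (gene bodies). The members were chosen by presence in the lists, by width and by position, so presence and distance past 1 kb are part of the choice and are given as description only. Each region's score in a list is that of its highest peak.

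The cells were hematopoietic stem cells (HSCs) sorted from adult mice that had received poly(I:C), a double-stranded RNA that induces interferon, and then cultured. The genotype was Mx1-Cre-/-;mTORflox/flox, so that both floxed mTOR alleles were present without the Cre that would delete them, and all 3 groups shared this genotype and poly(I:C) exposure. One culture received the solvent DMSO, another 200 nM AZD2014 and the last 1 µM rapamycin, with 50000 cells and 1 library per condition. There is therefore no spread between replicates, no test and no p-value, and the intervals given cover counting error only. The inhibitors were used at different doses, so their values stand side by side without a comparison at matched dose. Read depth is unknown. In bulk cells, a site open in fewer cells and a site less open in each cell cannot be told apart.

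ATAC-seq reads where a transposase can insert adapters into accessible DNA. Accessible sites away from genes are known to include enhancers, insulator sites and promoters of non-coding RNAs, and an enhancer may act on a gene that is not its nearest. mTOR is a kinase that drives translation and growth. AZD2014 competes for its ATP site, whereas rapamycin binds it through the protein FKBP12.

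Some of these regions lie over starts of non-coding genes, so that their sequence can be shown. In the RefSeq tables on GRCm38.p6, 247 promoters of 210 long non-coding RNA (lncRNA) genes lay wholly inside 202 members, which is 8.87% of the members. The following 5 are shown because they belong to named lncRNA genes and span high to middling score ranks. Each window runs from 250 bases before to 50 bases after the annotated start, 5′ to 3′ on the strand of the gene, with CG dinucleotides in capitals.
Chaserr: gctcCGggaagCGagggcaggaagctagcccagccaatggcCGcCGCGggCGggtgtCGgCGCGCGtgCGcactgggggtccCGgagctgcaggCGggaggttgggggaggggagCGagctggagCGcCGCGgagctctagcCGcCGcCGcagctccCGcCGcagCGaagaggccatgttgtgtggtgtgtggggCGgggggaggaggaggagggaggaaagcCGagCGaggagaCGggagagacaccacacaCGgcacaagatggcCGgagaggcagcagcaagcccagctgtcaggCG
Snhg5: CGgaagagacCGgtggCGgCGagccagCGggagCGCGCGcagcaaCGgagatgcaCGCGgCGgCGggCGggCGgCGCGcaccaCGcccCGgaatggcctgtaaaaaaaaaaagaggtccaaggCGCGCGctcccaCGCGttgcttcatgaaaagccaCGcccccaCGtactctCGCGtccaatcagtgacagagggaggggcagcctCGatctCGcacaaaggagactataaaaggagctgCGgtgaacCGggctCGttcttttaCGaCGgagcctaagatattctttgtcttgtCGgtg
Crnde: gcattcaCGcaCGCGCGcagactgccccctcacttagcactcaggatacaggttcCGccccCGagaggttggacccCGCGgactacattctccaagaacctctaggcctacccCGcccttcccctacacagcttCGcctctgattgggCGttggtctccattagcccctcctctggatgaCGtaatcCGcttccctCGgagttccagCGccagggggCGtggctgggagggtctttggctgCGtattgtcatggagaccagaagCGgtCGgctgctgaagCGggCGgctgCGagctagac
Dancr: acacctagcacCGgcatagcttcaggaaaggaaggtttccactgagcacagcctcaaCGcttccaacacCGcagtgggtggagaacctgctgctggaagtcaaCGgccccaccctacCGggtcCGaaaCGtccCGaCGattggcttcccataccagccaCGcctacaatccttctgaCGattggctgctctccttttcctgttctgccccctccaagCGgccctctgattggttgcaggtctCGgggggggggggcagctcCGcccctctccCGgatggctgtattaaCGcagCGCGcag
Snhg15: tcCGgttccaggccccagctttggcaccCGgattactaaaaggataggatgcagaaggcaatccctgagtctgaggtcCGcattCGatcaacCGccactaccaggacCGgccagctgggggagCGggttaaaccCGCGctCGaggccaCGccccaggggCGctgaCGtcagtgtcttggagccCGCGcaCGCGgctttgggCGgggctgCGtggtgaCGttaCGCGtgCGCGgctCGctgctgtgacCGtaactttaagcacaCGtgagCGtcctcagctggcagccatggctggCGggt
The Chaserr window is chr7:73558346-73558645 on the minus strand, that of Snhg5 chr9:88522848-88523147 (minus), that of Crnde chr8:92356071-92356370 (minus), that of Dancr chr5:74092810-74093109 (plus) and that of Snhg15 chr11:6528711-6529010 (minus). They hold 30, 36, 22, 18 and 29 CG dinucleotides. The Snhg15 window holds the cyclic AMP response element (CRE) letters TGACGTCA from position 163, counted from 1 at its 5′ end. The Chaserr window holds the RUNX letters TGTGGT, or their reverse complement, from positions 182 and 246.

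MicroRNA genes in the members were few, with 10 mature microRNAs of 6 genes inside 5 regions. The 4 below are shown because their regions had the highest ranks among these or because 2 of them share a seed, with bases 2 to 8 in capitals.
miR-210-3p: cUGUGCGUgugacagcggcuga
let-7i-5p: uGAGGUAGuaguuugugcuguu
miR-212-3p: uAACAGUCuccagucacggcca
miR-132-3p: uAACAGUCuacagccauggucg
miR-212-3p and miR-132-3p have the same seed, AACAGUC, and lie in 1 region, chr11:75172806-75174003.

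Scores were compared only as ranks. The rank percentile of a region in a list runs from 0 to 100 (highest score) among the 12377 common regions under the width limit. Common regions outside genes ranked low among the common regions in every list. Their medians were 28.8 in the DMSO list, 27.2 in the AZD2014 list and 27.7 in the rapamycin list. Gene-body regions had medians of 31.6, 31.1 and 30.7, and gene-end regions 64.2, 64.7 and 64.8. The median score of the members was 98.8 in the DMSO list, 137 in the AZD2014 list and 106 in the rapamycin list, and since depth is unknown these are not on a shown common scale. Members were in the upper 50% of all 3 lists in 338 cases (14.8%), compared with 57.6% of gene-end regions. Members in the highest 10% of all 3 lists numbered 40, and those in the lowest 10% of all 3 numbered 94.

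**Figure D1:**
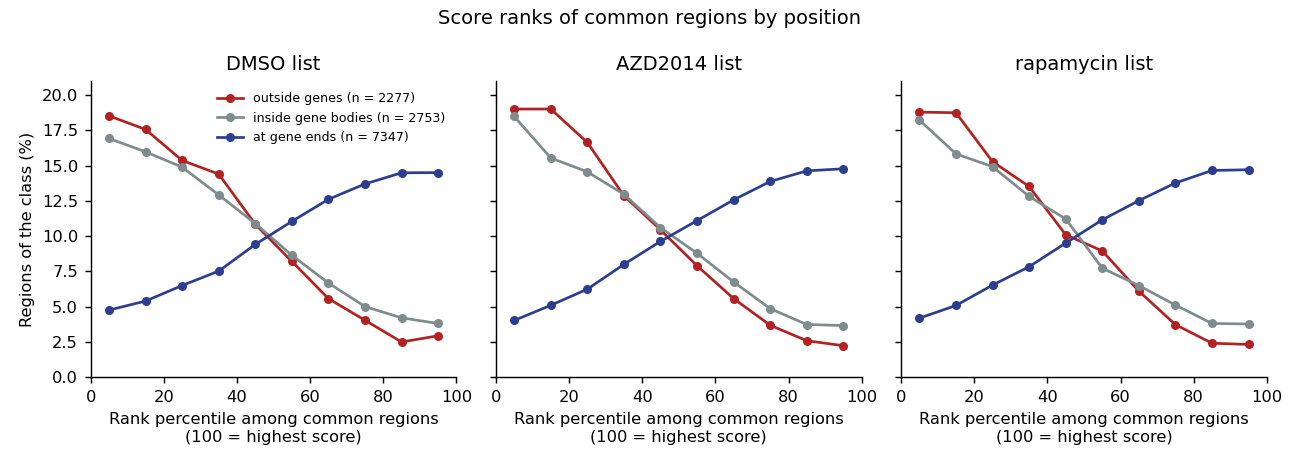
Share of each class of common regions (vertical axis, percent of the class) in each step of 10 percentiles of the score ranks (horizontal axis, rank percentile, 100 the highest) for the DMSO, AZD2014 and rapamycin lists. Regions outside genes (red) and inside gene bodies (grey) are most frequent at the lowest ranks, and regions at gene ends (blue) in the highest, in all 3 lists.

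Members were also narrower than regions at genes. Their merged width had a median of 731 bp, with quartiles of 632 and 896 bp, against 775 bp in gene bodies and 1003 bp at gene ends. The peaks inside them had median widths of 527 bp (DMSO), 659 bp (AZD2014) and 623 bp (rapamycin). Ranks of the same region in 2 lists were less alike outside genes and in gene bodies than at gene ends. As a description across regions, which share a library, Spearman's rho was 0.707 between AZD2014 and DMSO, 0.680 between rapamycin and DMSO and 0.744 between the inhibitors. Gene-body regions had 0.765, 0.742 and 0.813, and gene-end regions 0.902, 0.895 and 0.916.

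The 10 highest-ranked members had scores far above those of most members. The first, chr9:35305147-35305791 between Rpusd4 and Cdon, scored 3149 under DMSO and 3100 under both AZD2014 and rapamycin, and within each list no peak scored higher. A score of 3100 was shared by 4 peaks of the DMSO list, 6 of the AZD2014 list and 3 of the rapamycin list, so that the top place was tied in both inhibitor lists. The second, chr12:97061120-97062090, lay 1140 kb from Galc, which encodes a lysosomal galactosylceramidase, and scored 3100, 3100 and 2906. The others had Pex2, Rab10, Samd9l, Lrrc4c, G6pd2, Nxph1, Asmt and Eea1 as nearest genes. All 10 scored at least 1159.92 in every list, above the highest common gene-end region under the width limit, which had 1082. Gene-body regions reached 2897 (DMSO), 3100 (AZD2014) and 2451 (rapamycin), so such scores were not particular to regions outside genes. Members 11 to 50 reached 1308.5, 1072 and 1289.7, so that scores overlapped those of the first 10 under DMSO and rapamycin. The first 10 were narrow, with a median width of 748 bp, and 7 lay over 100 kb from a gene. The next 40 members were 1094.5 bp wide at the median, and 7 of those 40 lay that far. No set of intervals known for excess signal was removed here, and the part of such intervals in these scores was not tested. Without these 10, the median rank percentiles were 28.7, 27.1 and 27.6.

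Distance to the nearest protein-coding gene, from edge to edge, had a median of 22.8 kb (95% interval 20.95 to 24.7). The quartiles were 8.06 and 66.9 kb. Between 1 and 5 kb lay 360 members (15.8%), between 5 and 20 kb 710 (31.2%), between 20 and 100 kb 804 (35.3%) and beyond 100 kb 403 (17.7%). Over 500 kb lay 55 and over 1000 kb 11. Rank hardly followed distance: the median rank percentiles were 30.4 (DMSO), 27.9 (AZD2014) and 28.9 (rapamycin) in the nearest class and 29.4, 27.9 and 30.2 in the farthest. Where the strand of the nearest gene was known, 900 of 1787 members (50.4%, interval 48.0 to 52.7) lay on the side of its start. Among those within 5 kb it was 113 of 286 (39.5%, interval 34.0 to 45.3), where the choice had left out 1 kb beside both ends of every gene.

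**Figure D2:**
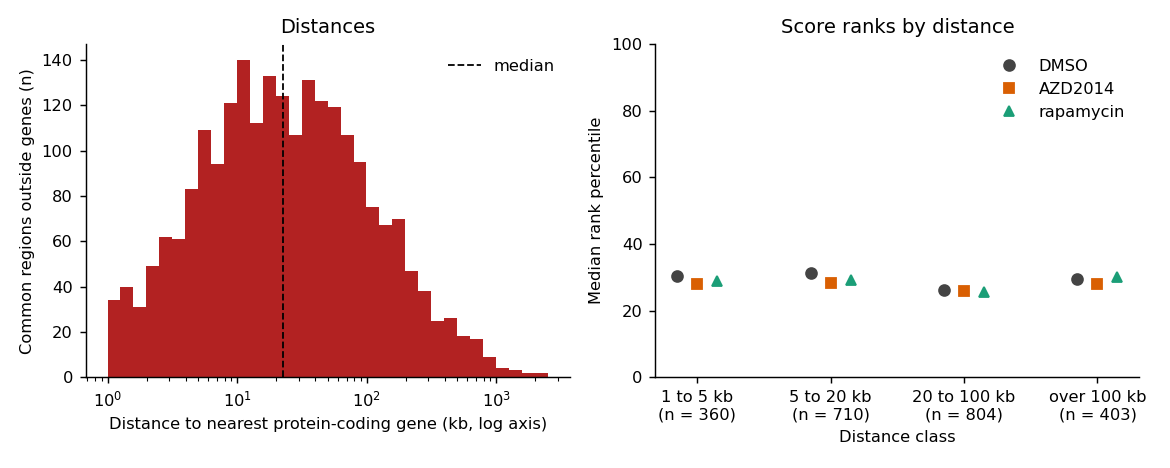
Left, number of common regions outside genes by distance to the nearest protein-coding gene in kb (log axis, dashed line the median of 22.8 kb). Right, median rank percentile of the members of each distance class in the DMSO, AZD2014 and rapamycin lists, where all 12 medians lie between 25.6 and 31.2.

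The most remote member, chr1:102628149-102628537, was 2138 kb from Cntnap5b and a like distance from Cdh20, genes of neural adhesion molecules. It was 389 bp wide and ranked high in each list, with scores of 398, 361 and 337 and rank percentiles of 93.5, 76.0 and 82.3. A member 2102 kb from the protocadherin gene Pcdh9 scored 191, 174 and 157, and its rank percentiles were 63.1, 38.9 and 46.8. Of the 10 most remote members, 3 (those nearest to G6pd2, Galc and Lrrc4c) were also among the 10 with the highest scores. A further remote pair lay 1253 and 1326 kb from Zeb2, which encodes a zinc finger repressor. Its nearer region scored 80.5, 158 and 185 and was highest in rank under rapamycin, at 54.5 against 18.2 under DMSO, while the farther one scored 69.0, 56.1 and 61.3 and was low in all 3 lists.

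At the limits of the choice, the widest members were 1498 bp (near Ifnar1), 1493 bp (Cela3a) and 1491 bp (Eapp), and the first regions left out were 1508 bp (Cd180), 1511 bp (Ptma) and 1521 bp (Irf2bp2). Members close to the limit of distance included those 1004 bp from Usp18 and 1014 bp from Lsm11, and the first counted as gene ends were 984 bp from Atp8b1, 972 bp from Trim8 and 968 bp from Otud4. In all, 95 common regions outside genes were at or over the width limit.

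Members were spread over 1716 stretches, a stretch being the space between 2 consecutive protein-coding genes. Of these, 1335 held 1 member, 275 held 2 and 106 held 3 or more, and the last group contained 392 members (17.2%). Stretches with 3 or more were long, at a median of 297 kb against 66.4 kb for those with 1. They held a median of 1.19 members per 100 kb against 1.51. Stretches without a member are left out, so the density of a stretch with 1 is set by its length alone. The densities therefore do not show whether fuller stretches are sparser. Chromosomes differed: the share of common regions that lay outside genes was lowest on chromosome 19, with 10.8% (40 of 372), and highest among the autosomes on chromosome 3, with 24% (143 of 597). Chromosome Y had 6 common regions, of which 5 were outside genes.

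The fullest stretches were a pair with 9 members each. One ran for 335 kb from Haao, an enzyme of tryptophan breakdown, to Zfp36l2, which encodes an RNA-binding protein that speeds mRNA decay and is required for HSCs. Its members ranked from 4.26 to 79.8 in the DMSO list, 1.34 to 71.9 in the AZD2014 list and 5.15 to 88.8 in the rapamycin list. The highest, chr17:84115779-84117172, lay 66.8 kb from Zfp36l2 and scored 272, 333 and 396. The one nearest to Haao covers an isoleucine tRNA gene, n-TIaat17, and scored 185, 332 and 162. Counting regions found in any list, the same stretch had 12 in the DMSO list, 19 with AZD2014 and 14 with rapamycin, from 21 positions. The whole lists also differ in length, with 17189 peaks (DMSO), 21321 (AZD2014) and 18233 (rapamycin).

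The other stretch with 9 was the 2501 kb between Adam6a and Zfp386, which holds the variable segments of the immunoglobulin heavy chain locus, Igh. Apart from chr12:115311750-115312527, which covers Ighv1-58 and scored 217, 262 and 218, and chr12:115165361-115166330, with 116, 233 and 154, its members ranked below the 40th percentile in every list. The Igh locus was covered by 17 regions in the DMSO list, 30 in the AZD2014 list and 18 in the rapamycin list. These counts include regions not found in all 3 lists. The AZD2014 list is the longest, with 21321 peaks against 17189 (DMSO) and 18233 (rapamycin), and the part of list length was not tested. The stretch from Gm36448 to Dad1, with 6 members, spans the T cell receptor alpha locus, Tcra. Tcra itself held 5 of these members, the highest with a mean rank percentile of 34.5 over the 3 lists. The highest member of the stretch, chr14:54227076-54228459, lay outside Tcra and 7.03 kb from Dad1. Dad1 is a subunit of the enzyme that transfers sugar chains to proteins. That member scored 120, 258 and 320, with rank percentiles of 39.2, 58.9 and 80.3. The T cell receptor beta locus held 1 member, which covers Trbv1 and scored 214, 477 and 317. The immunoglobulin lambda and T cell receptor gamma loci held no member.

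The stretch from Cebpb to Ptpn1 (240 kb) had 7 members. Cebpb encodes a leucine zipper factor of myeloid cells and of emergency granulopoiesis, and Ptpn1 a phosphatase of insulin signaling. The region chr2:167839424-167840881, 149 kb from Cebpb, scored 172, 242 and 135 and was the highest-ranked of the stretch under DMSO and AZD2014. The region chr2:167777143-167778255, 86.7 kb from Cebpb, scored 85.3, 213 and 75.4, with rank percentiles of 21, 49 and 12.5, so that it stood higher under AZD2014 than in the other 2 lists. The lncRNA promoters of Gm14321 and Gm32287 lie in it, and both hold the CRE letters. The region next to Ptpn1, at 5.02 kb, scored 78.4, 113 and 142 and ranked highest under rapamycin.

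The densest neighborhood was the 50.4 kb between Eapp, named for binding E2F factors, and Snx6, a part of the retromer sorting complex. It held 6 members, or 11.9 per 100 kb, spread over 29.4 kb, and no region there was missing from any list. Of these, 4 ranked above 45 in each list, the highest scoring 214, 370 and 279 at chr12:54718765-54719854. Other dense stretches were Rdm1 to Arl4d, with 3 members in 29.5 kb, Nsfl1c to Fkbp1a, with 3 in 31.2 kb, and Mreg to Pecr, with 4 in 46.9 kb.

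Myc to Gsdmc, a 1786 kb stretch downstream of the growth regulator Myc, held 6 members in 2 groups. One group lay at 168 and 231 kb from Myc. The nearer, chr15:62158748-62159435, scored 208, 142 and 94.8, and its rank percentile was 67.3 with DMSO, 29.1 with AZD2014 and 22.6 with rapamycin. The farther scored 79.5, 103 and 114. Both overlap the lncRNA gene Pvt1. The other 4 lay 1621 to 1714 kb from Myc, and the highest of them, at chr15:63647827-63648867, scored 179, 344 and 203.

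The remaining stretches of 6 were Rpl14 to Ctnnb1, Agtr1b to Tbl1xr1, Zeb2 to Acvr2a and Adgrl2 to Adgrl4. Ctnnb1 encodes beta-catenin, and the member 17.8 kb from it scored 138, 120 and 193. The 6 members beside Tbl1xr1, a subunit of nuclear corepressor complexes, lay 79.6 to 377 kb from it, and none ranked above 51 in any list. Beside Zeb2 the highest member lay at 317 kb and scored 191, 249 and 252.

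**Figure D3:**
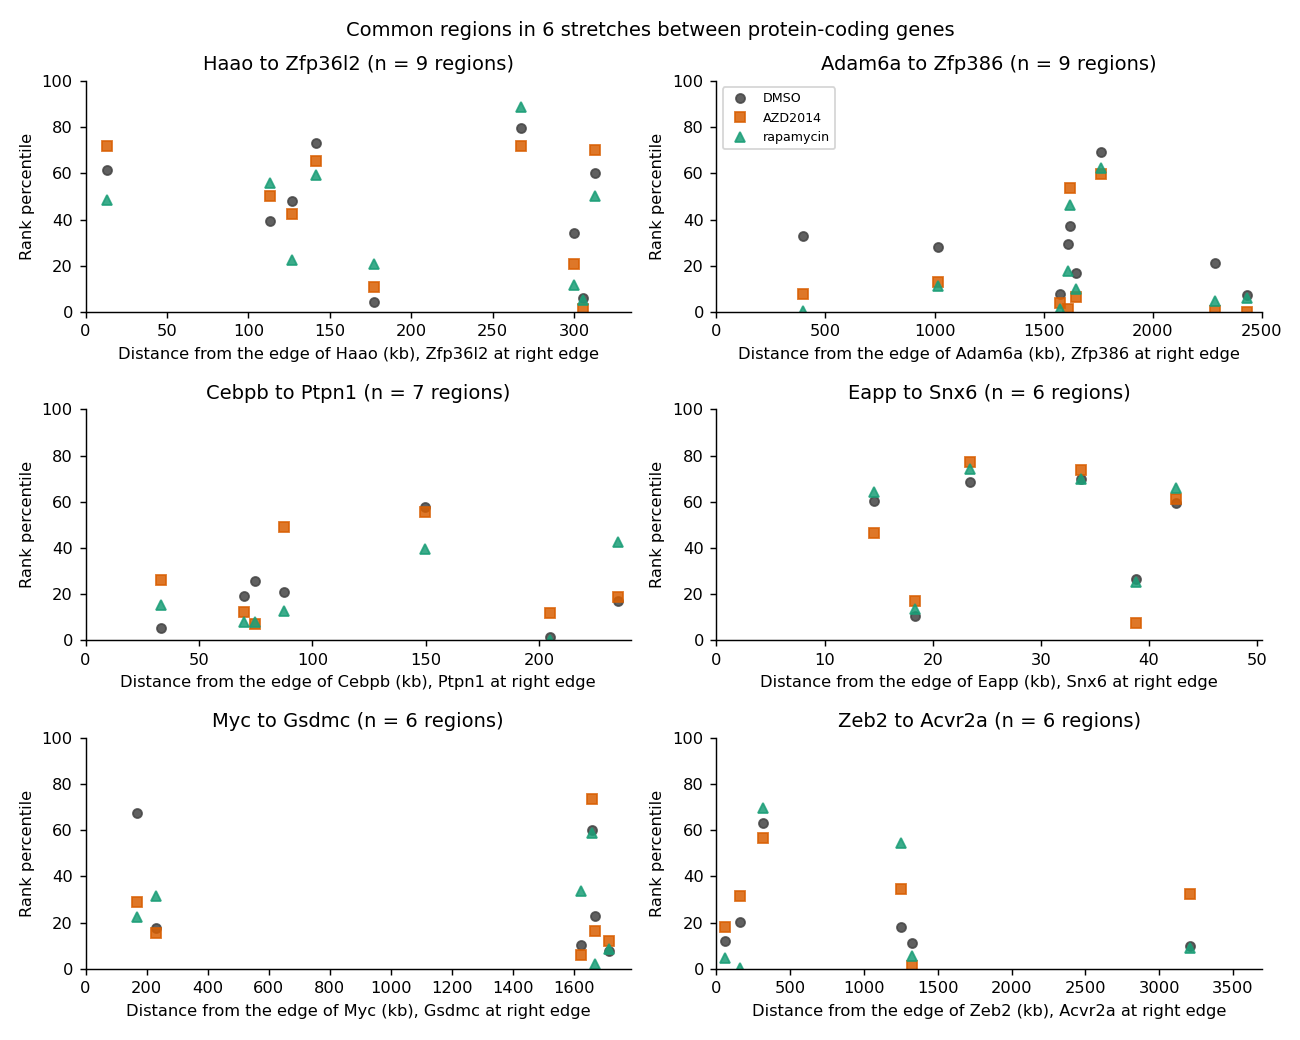
Position of each common region in 6 of the fullest stretches (horizontal axis, kb from the edge of the left gene, with the right gene at the right edge) and its rank percentile (vertical axis) in the DMSO (circles), AZD2014 (squares) and rapamycin (triangles) lists. Of the 6 regions of Eapp to Snx6, 4 rank above 45 in each list, and the Myc region at 168 kb stands highest under DMSO.

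Many members lie in genes that make no protein. A non-coding gene of the RefSeq table overlapped 783 members (34.4%), with lncRNA genes in 644, pseudogenes in 71, tRNA genes in 40, small nuclear RNA genes in 25, and microRNA and small nucleolar RNA genes in 5 each. Members with a tRNA gene ranked higher, at a median of 47.3 for the mean rank percentile over the 3 lists, and those with a small nuclear RNA gene at 57.0. Members with no such gene had 26 and those with an lncRNA gene 29.2. Width differed as well, with medians of 1044 bp for tRNA and 1170 bp for small nuclear RNA genes. It was 712 bp for members with no non-coding gene and 767.5 bp for those with an lncRNA gene. The part of width in these ranks was not tested.

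Of the members that hold a whole lncRNA promoter window, which by itself keeps the start inside the region, the center lay at a median of 8 bp before the start, with quartiles of 112.5 bp before and 134 bp after it, and the median mean rank percentile of these 202 members was 40.2. Their promoters had a median GC content of 54.7% and 10 CG dinucleotides, compared with 46.7% and 3 in the 7012 other lncRNA promoters outside genes, and 56.3% and 13 in protein-coding promoters. The ETS letters GGAAGT, on either strand, were in 28.3% of these promoters, in 21.7% of the other lncRNA promoters outside genes and in 24.8% of protein-coding promoters. The CRE letters were in 9 promoters (3.64%), against 0.699% and 2.23%. Some of these 9 windows overlap within the same region, such as those of Gm14321 and Gm32287. The same site can thus be counted more than once. The RUNX letters were in 22.7%, against 21% and 15%. For the 9-letter CTCF form CCANNAGGG the shares were 8.91%, 5.78% and 6.04%, and for the GATA letters AGATAA 11.3%, 16.3% and 9.65%. The PU.1 letters GAGGAAGT, which contain the ETS letters, were in 6.07%, 3.48% and 3.13%. The AP-1 letters TGANTCA were in 7.69%, 10.7% and 6.99%, the CEBP letters TTGCNNCAA in 2.02%, 3.01% and 1.79%, and the E-box CAGCTG in 13.8%, 17.4% and 15.6%. All matches were sought on both strands and describe letters in 300-base windows, not bound sites.

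The promoters printed above lie in some of these regions. Chaserr, an lncRNA beside and restraining Chd2, scored 541, 701 and 681 and ranked 98.7, 98.1 and 99.0. The region of Snhg5 scored 491, 659 and 448, and that of Crnde, an lncRNA divergent from Irx5, 420, 558 and 533. Dancr shares its region with the small nucleolar RNA gene Snora26 and scored 360, 447 and 329. These 4 were above the 80th percentile of rank in every list. Snhg15 scored 189, 210 and 284, and its rank percentile was 62.7 in the DMSO list, 48.3 for AZD2014 and 75.2 for rapamycin. In all, 8 of 17 Snhg genes, which host small nucleolar RNAs, were overlapped by a member. Further named lncRNA genes with a member included the X-inactivation regulators Ftx and Jpx, as well as Firre, Lncpint and Junos.

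Of 332 tRNA genes outside protein-coding genes, 50 (15.1%) were overlapped by a member. For lncRNA genes outside genes it was 6.73% of 7323, and for pseudogenes 0.699% of 8008. These kinds of genes differ in length, and the part of length in the shares was not tested. The highest was the asparagine tRNA gene n-TNgtt14, with scores of 275, 451 and 328. Chromosome 13 held 9 of the 40 members with a tRNA gene, all between 21 and 24 Mb, where the tRNA genes neighbor a histone cluster. Their median rank percentiles were 20.4 (DMSO), 9.75 (AZD2014) and 38.5 (rapamycin), and over all 43 common regions of that window 37.1, 40.7 and 44.3. The region of Rn7sk, the RNA that holds the elongation factor P-TEFb inactive, scored 344, 310 and 345.

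Among microRNA genes, the region of Mir210, the hypoxia-induced microRNA, had the highest mean rank over the 3 lists. It scored 353, 422 and 388, with rank percentiles of 90.2, 83.5 and 88.0. Mirlet7i followed by mean rank, with scores of 323, 431 and 327, and stood above Mir210 in the AZD2014 list, at 84.3. The region of Mir212 and Mir132, a pair with known control by CREB, scored 106, 232 and 127, and its rank percentile was 32.5 in the DMSO list, 53.5 with AZD2014 and 36.6 with rapamycin. Mir713 scored 155, 184 and 153, and Mir6236 82.4, 115 and 72.1.

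The nearest genes of the members numbered 1829, which is 8.36% of 21887 protein-coding genes. Of 297 listed genes, 84 were the nearest gene of a member. The share was 17 of 27 (63.0%) for AP-1 and immediate early genes, 16 of 29 (55.2%) for HSC transcription factors and 9 of 21 (42.9%) for myeloid transcription factors. It was 10 of 28 (35.7%) for interferon and NF-kB response genes, 5 of 31 (16.1%) for mTOR, MNK and CREB genes and 3 of 20 (15%) for housekeeping genes. B and T cell genes had 2 of 21, and mast cell and erythroid genes 1 of 16 each. Genes with much empty space around them can be nearest to more regions, and this space differed. Its median was 117 kb for AP-1 and immediate early genes, 127 kb for HSC and 230 kb for myeloid transcription factors, against 38.9 kb over all genes, 34.9 kb for interferon and NF-kB genes and 100 kb for non-blood genes, of which 3 of 18 were nearest to a member. The part of that space in the shares was not tested.

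**Figure D4:**
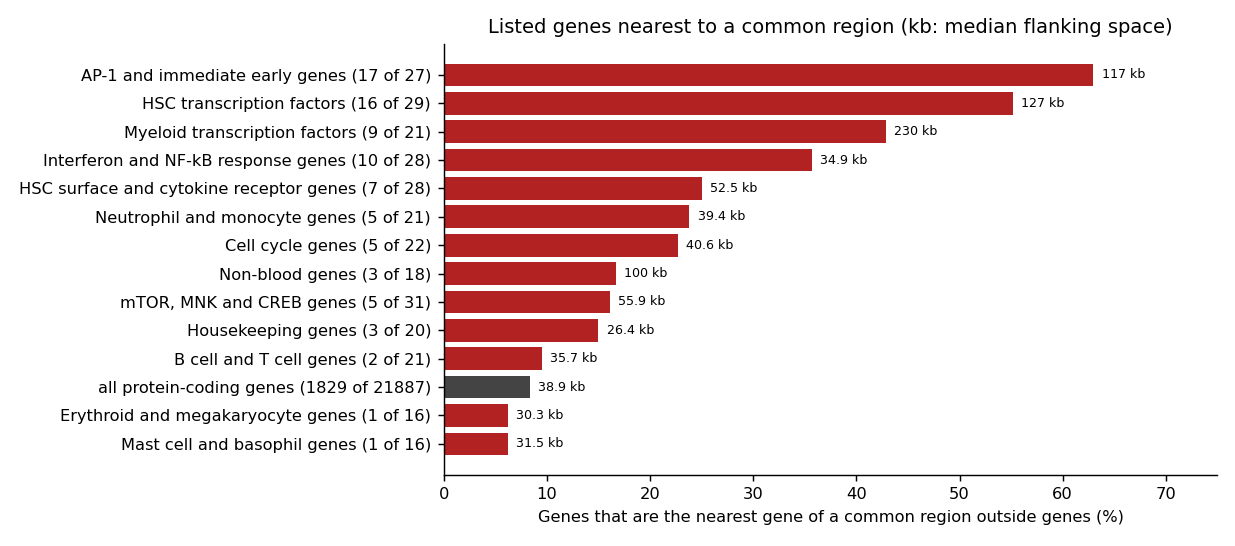
Share of the genes of each list that are the nearest protein-coding gene of a common region outside genes (horizontal axis, percent, with counts in the labels), with the median space to the neighboring genes in kb beside each bar. AP-1 and immediate early genes (63.0%) and HSC transcription factors (55.2%) have the longest bars, and all protein-coding genes (dark bar) stand at 8.36%.

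AP-1 and immediate early genes had 34 members, 14 of them within 20 kb of the gene. Fos, the early response partner of Jun, had 2 members, and the one 17.9 kb away, chr12:85454888-85455967, scored 376, 467 and 429 and ranked 92.0, 87.7 and 91.3. Nr4a3, an orphan nuclear receptor, had one 1.19 kb away, with 428, 537 and 485. Ier5 had one 12.4 kb away that scored 393, 460 and 308. Fosb had 3 between 1.32 and 9.66 kb, all of low rank, the highest rank percentile being 44.1. Jun had 3, all overlapping the lncRNA gene Junos, and that with the highest scores (154, 256 and 222) lay 109 kb away. Dusp6, a phosphatase of ERK, had 3, and the one 20.4 kb away scored 91.7, 266 and 123, with rank percentiles of 24.6, 60.3 and 35.

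HSC transcription factors had 21 members, with a median distance of 27.2 kb and median rank percentiles of 24.9, 25.6 and 22.6. Gata2, a factor HSCs need, had one 3.78 kb away, with scores of 103, 229 and 211 and ranks of 30.9, 52.7 and 61.0. Gfi1b had 2, the stronger 10.7 kb away with 154, 300 and 163. Meis1 had one 2.09 kb away that scored 140, 140 and 94.8, with rank percentiles of 47.4, 28.5 and 22.5. Runx1 had 2 at 321 and 327 kb, the second scoring 103, 132 and 129. Ikzf1 had one at 27.2 kb with 159, 231 and 192, at similar ranks of 54.1, 53.3 and 56.0. Hlf, Fli1, Erg, Lmo2, Myb, Sox4, Hmga2, Bcl11a, Ikzf2 and Zfpm1 also had members, whereas Tal1, Mecom and Prdm16 had none.

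Among myeloid factors, Cebpe, which drives granule formation in neutrophils, had the member with the highest DMSO score, 4.04 kb away, with scores of 369, 467 and 265. Maf had 4 members at 64.0 to 315 kb, and none ranked above 42 in any list. Nr4a1 had one 7.0 kb away with 264, 443 and 346. Of the HSC surface and receptor genes, 7 of 28 were nearest to 14 members. Cd34, a progenitor surface sialomucin, had 4 at 10.4 to 58.7 kb, the highest scoring 195, 312 and 205. Cxcr4, the receptor that keeps HSCs in the marrow, had one at 22.2 kb with 164, 315 and 196. Procr, an HSC surface receptor, had one 7.64 kb away with 128, 154 and 112 although no list had a peak in Procr itself or within 1 kb of it.

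In the mTOR, MNK and CREB list, 5 genes had 7 members. Irs2, an adaptor of insulin receptor signaling, had one at 38.0 kb with scores of 273, 242 and 175 and rank percentiles of 80.1, 55.4 and 51.7, and one at 82.9 kb with 81.2, 123 and 114. Eif4ebp1, the translation repressor that mTOR inactivates, had one at 7.20 kb with 59.1, 117 and 110. The mTORC2 subunit genes Rictor and Prr5 had one each, with 68.6, 66.8 and 95.2 and with 105, 107 and 79.99. Of cell cycle genes, Ccne1, which encodes cyclin E, had the highest member of all the lists by mean rank over the 3 libraries, 12.2 kb away with 382, 557 and 543. Ccnd1 had one 85.4 kb away with 168, 114 and 107, whose rank percentile was 56.8 with DMSO, 19.5 with AZD2014 and 28.3 with rapamycin. Cdk6 had 3 between 39.3 and 188 kb, the farthest scoring 243, 252 and 250.

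Rank shifts between lists were counted where the rank percentile of a region differed by 20 points or more. Both inhibitor lists are set against the same DMSO library. Under AZD2014, 178 members (7.82%, interval 6.78 to 8.99) ranked higher than under DMSO and 247 (10.8%, interval 9.64 to 12.2) lower, where over all 12377 common regions the shares were 7.14% and 7.09%. Under rapamycin, 210 (9.22%, interval 8.10 to 10.5) ranked higher than under DMSO and 249 (10.9%, interval 9.72 to 12.3) lower, against 8.01% and 8.15% over all. Between the inhibitors, 168 (7.38%) ranked higher under AZD2014 and 196 (8.61%) higher under rapamycin, against 5.74% and 5.84%. At gene ends the 6 shares were 6.53, 4.95, 7.20, 6.19, 4.94 and 4.57%, and gene-body regions had 8.21, 9.70, 9.15, 11.1, 6.50 and 6.94%. In all, 1454 members (63.9%) shifted by 20 points in no pair. No such share over all common regions is given, so this value is not shown to be particular to members. Of the 40 members with a tRNA gene, 7 ranked higher and 1 lower under rapamycin than under DMSO, and 1 higher and 3 lower under AZD2014. At 10 points or more, 486 members were higher and 613 lower under AZD2014 than under DMSO (20.2% and 20.4% over all common regions), 552 and 613 under rapamycin (21.5% and 21.4%), and 495 and 551 between AZD2014 and rapamycin (18.6% and 18.7%). At 30 points or more the counts were 50 and 68 (2.07% and 1.98% over all), 76 and 80 (2.55% and 2.34%), and 37 and 45 (1.26% and 1.33%).

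The balance of these counts depends on what the ranks are taken among. With the percentile among all peaks of each list, 509 members were higher under AZD2014 than under DMSO and 74 lower, and over all common regions the shares were 15.7% and 1.85%. Rapamycin then had 310 higher and 202 lower (9.57% and 5.18% over all), and AZD2014 had 393 higher and 71 lower than rapamycin (10.6% and 1.84% over all). The AZD2014 list is the longest, with 21321 peaks against 17189 and 18233, and members made up 10.7% of it, 13.3% of the DMSO list and 12.5% of the rapamycin list. The shares of shifts also differed between levels of rank, and the part of rank level in the counts was not tested. Where the mean rank percentile lay between 20 and 40, 11.6% of members and 15.3% of gene-end regions ranked higher under AZD2014 than under DMSO, and 16.7% and 10.7% lower. Between 80 and 100 the shares of members were 0% and 3.64%, and of gene-end regions 0.291% and 0.243%.

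**Figure D5:**
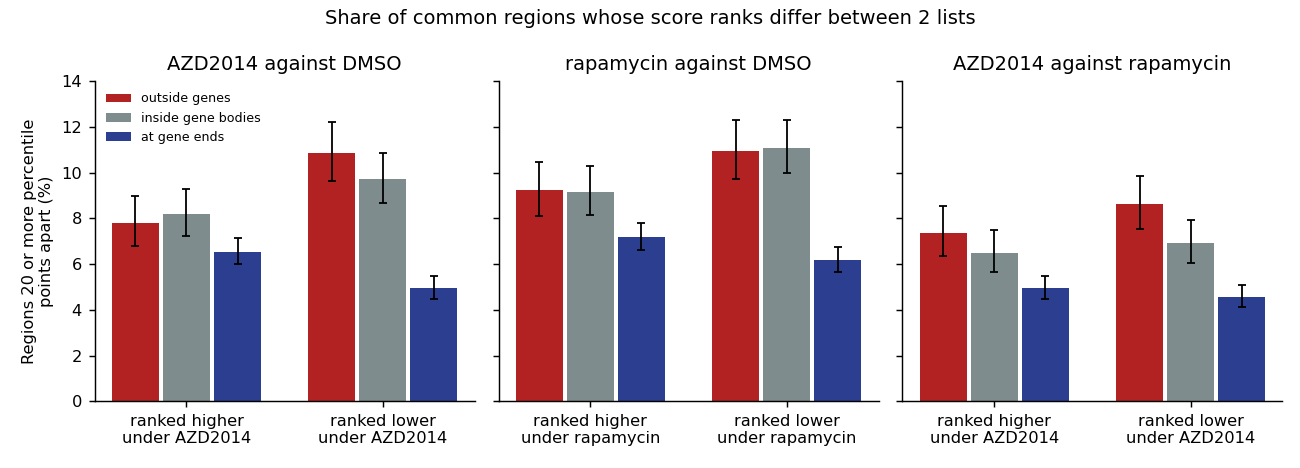
Share of common regions (vertical axis, percent, from 0) whose rank percentile differs by 20 points or more between 2 lists, for regions outside genes (red), in gene bodies (grey) and at gene ends (blue); bars are shares and whiskers 95% Wilson intervals for counting error. Regions outside genes ranked lower under AZD2014 than under DMSO in 10.8% and gene-end regions in 4.95%.

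The member with the largest rise in rank under rapamycin, which also led under AZD2014, was chr16:30179267-30180058, between the Notch target Hes1 (111 kb) and Cpn2 (76.3 kb). It scored 59.3 in the DMSO list, 242 in that of AZD2014 and 258 in that of rapamycin, so that its rank percentile was 5.32 and then 55.6 and 70.9. Beside Was, the actin regulator of blood cells that is lost in Wiskott-Aldrich syndrome, the member chrX:8102059-8102867 scored 67.4, 260 and 194 and ranked 10.3, 59.2 and 56.6. Rasa1, which switches Ras off, had a member with scores of 88.1, 335 and 248 and rank percentiles of 22.6, 72.4 and 69.1. Arl4c, a small GTPase, had one with 63.2, 229 and 180, at 7.81, 52.7 and 53.0. The member between Dtnb (6.23 kb) and the DNA methyltransferase gene Dnmt3a (9.40 kb) scored 79.1, 258 and 221 and ranked 17.4, 59.0 and 63.3. These 5 were low in rank under DMSO and higher in both inhibitor lists.

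Other members differed between the inhibitor lists. Near Vwf, the gene of von Willebrand factor, a member 11 kb away scored 56.7, 214 and 65.3. Its rank percentiles were 3.75, 49.1 and 7.44, near the middle under AZD2014 and low in the DMSO and rapamycin lists. Stmnd1 and Tmem164 had members that scored 67.2, 263 and 122 and 67.1, 249 and 122, with rank percentiles of 10.2, 59.8 and 34.3 and of 10.1, 56.8 and 34.5, past 20 points above DMSO in both inhibitor lists and highest with AZD2014. Near Adamts2, a procollagen protease gene, a member scored 58.0, 94.1 and 216 and ranked 4.48, 12.1 and 62.2, and was high in the rapamycin list. Rasgrf1 had one with 64.2, 135 and 222.

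Members that ranked higher under DMSO than in both inhibitor lists included one 9.0 kb from Tom1l1, an adaptor of membrane traffic. It scored 207, 82.7 and 86.9, with rank percentiles of 67.2, 8.55 and 18.8. The region near Memo1 had 203, 82.6 and 90.7, and that near Lrpprc, a regulator of mitochondrial mRNA, 156, 56.3 and 61.3. A member 42.5 kb from Edn1, the endothelin gene, scored 154, 83.3 and 53.2. Near Gata3 a member 263 kb away scored 203, 122 and 127, with rank percentiles of 66.0, 22.0 and 36.4. The Myc member at 168 kb, given above, was among the 8 with the largest falls under rapamycin.

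The inhibitor lists differed most at a member 11.5 kb from Ifnar1, a subunit of the type I interferon receptor, which scored 129, 243 and 57.6, with rank percentiles of 43.2, 55.7 and 3.49. A member 11.6 kb from Fkbp1a, the gene of FKBP12, scored 126, 191 and 55.0 and ranked 41.7, 43.8 and 2.23. Near Ltf, the lactoferrin gene, one scored 130, 181 and 53.5. The members near Id2, an inhibitor of helix-loop-helix factors, and Pak1, a kinase under Rac, were also low in the rapamycin list, with 161, 170 and 64.2 and with 137, 167 and 51.3. In the other direction, a member near Cyria scored 119, 116 and 233 and one near Bcorl1, a corepressor, 146, 96.2 and 199. These single values have no replicate, and a score near 50 is at the lowest value of any list.

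Peaks in or within 1 kb of marker genes of several cell types were counted. No share over all protein-coding genes is given for this measure, and the marker lists differ in length. The counts are therefore a description and do not establish the identity of the cells. HSC and progenitor markers had such a peak in 9 of 14 genes in the DMSO list, 10 with AZD2014 and 11 with rapamycin. Procr and Ly6a were among those at 0 in each list. Markers of T cells had none of 3. Mast cell and basophil markers had 0, 0 and 1 of 5, those of myeloid cells 1, 1 and 3 of 5, of B cells 1, 2 and 2 of 3, of erythroid cells 2 of 3 in each list and of non-blood cells 1, 1 and 2 of 4. Members were nearest to 7 of the 14 HSC and progenitor markers and to none of the 23 others, where the share over all protein-coding genes was 8.36%. The longer gene lists differed less. Neutrophil and monocyte genes had 5 of 21 (23.8%) nearest to a member, and HSC surface and cytokine receptor genes 7 of 28 (25%). The part of the space around the markers in these counts was not tested.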

How the data were processed

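The authors deposited 1 peak list per library, with a score for each peak. The peak names carry the word MACS, and the submitters' processing notes name CASAVA and the build mm10. No source used here gives the aligner, caller settings, duplicate filter or transposase shift, which affect how many weak or wide peaks a list holds. The score is the authors' own value and was used only to rank peaks within a list. Peaks overlapping by at least 1 bp were merged. Genes came from RefSeq GRCm38.p6, the assembly mm10 names, with 21887 protein-coding genes. Named regions were the 10 highest in mean rank, the 10 fullest stretches, the 10 most remote, the 8 largest shifts per pair and direction, and members nearest to a listed gene or over a named non-coding gene. Predicted genes were skipped except as flanking genes. A few members that this rule names are not reported here. Promoters holding the CRE letters, dense stretches and receptor loci were picked once their values had been seen. The members and the 13 gene lists were chosen with earlier results of these data known. Of 298 listed genes, 297 were matched. No genome sequence was used here, so GC content and motifs were taken in RefSeq promoter windows and not over whole regions. Intervals of shares are Wilson intervals and those of medians come from order statistics. Merging and distances were tested on simulated data made by altering the 17189 DMSO peaks, in which 16689 unaltered peaks were found as common and 0 of 500 distances were wrong. Python 3.11.15, pandas 2.3.3, numpy 2.4.6, scipy 1.17.1 and matplotlib 3.10.9 were used.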

Additional observations from a re-analysis of the deposited data

How the results depend on the processing

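No paired analysis was possible because each condition had 1 library and the labels give no replicate numbers. Of 151 values under other settings, 99 stayed within 1.5 times the count or within the interval of the median or share, and 52 did not. The cause of each move was not tested beyond what the setting itself changes. In this paragraph, shift counts are given in the order AZD2014 higher and lower than DMSO, rapamycin higher and lower than DMSO, and AZD2014 higher and lower than rapamycin, and rank percentiles in the order DMSO, AZD2014, rapamycin.

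Counting non-coding genes as genes left 1444 regions, a share of 11.7%, a median distance of 9.81 kb, 15 stretches with 3 or more, median rank percentiles of 27.1, 25.5 and 26.1, and shift counts of 109, 161, 134, 170, 109 and 124. With the upper 50% of each list, 556 regions were counted, a share of 8.53%, a median distance of 19.0 kb, 6 stretches, median rank percentiles of 32.7, 30.4 and 29.4, and shift counts of 48, 85, 60, 90, 62 and 58. A width under 1000 bp gave a share of 24.9% and median rank percentiles of 35.6, 34.9 and 35.7. Its shift counts were 281, 333, 323, 340, 249 and 292, so that lower ranks under each inhibitor than under DMSO remained the more frequent. Without a width limit the share was 17.4% and the AZD2014 median 25.8. Genes extended by 2500 bp gave a share of 17.2% and a median distance of 26.7 kb, and lists of equal length a share of 17.4%. At 10 points the shift counts were 486, 613, 552, 613, 495 and 551. At 30 points they were 50, 68, 76, 80, 37 and 45. With percentiles among all peaks of a list, AZD2014 had 509 higher and 74 lower than DMSO and 393 higher and 71 lower than rapamycin. Leaving out the 10 highest-ranked members, an alternative chosen after seeing the data, moved no shift count. Counting either flanking gene within 100 kb gave 99 listed genes instead of 84.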
